A study of Mus musculus with 24 samples.

Results

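The developmental pluripotency associated genes examined here are Dppa2, Dppa3, Dppa4, Dppa5a and Utf1, RNAs typical of the early embryo, of germ cells and of embryonic stem cells (ESCs). They were chosen by name, as the genes of the count tables that carry 1 of these 5 symbols, and all 5 were found among 51912 genes. Expression was followed in wild-type mouse ESCs, in neuronal progenitors (NPs) and in ESCs that lack the TET enzymes (TET TKO), with 3 RNA-Seq libraries each.

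DPPA2 and DPPA4 are partner proteins with a SAP domain, a fold that binds DNA. Together they occupy CpG-rich promoters of developmental genes in ESCs, keep them free of DNA methylation and act upstream of Dux and the Zscan4 genes of the 2-cell embryo. DPPA3, also known as STELLA, is a maternal and germ cell protein that restrains UHRF1, the adaptor that brings the maintenance methyltransferase DNMT1 to replicating DNA. DPPA5A is an RNA-binding protein with a KH domain, and UTF1 is a chromatin protein of pluripotent cells that binds promoters carrying Polycomb marks and whose gene is a known target of OCT4 and SOX2.

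The wild-type ESCs (genotype wild type, strain C57BL/6 X 129S5) were grown with LIF on gelatin, per the study's methods. The NPs carried the same strain and genotype labels and were obtained by growing ESCs as floating aggregates and then adding retinoic acid. The TET TKO ESCs (genotype TET1/2/3 triple knockout, strain C57BL/6 X 129/sv) are another line, which lacks the enzymes that oxidise 5-methylcytosine. Because the knockout line also differs from the wild-type ESCs in strain background, genotype and line cannot be told apart in its comparison, and its deeper sequencing was examined by thinning its counts. The study's methods describe colonies of this line picked after insertion of a cassette, and whether the RNA came from such a colony is not given in the sources used here. No label says which libraries came from separate cultures, so the p-values measure the spread between these libraries. The methods speak of barcoded biological replicates.

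The libraries held 20570050, 21602345 and 23976914 counts in ESCs and 20519702, 22132988 and 21214374 in NPs. The TET TKO libraries were deeper, with 84377108, 80704741 and 93210102 counts. Levels are given as RPKM, reads scaled to the length of the exons and to the size of the library, after scaling library sizes by TMM, a method that equalises the bulk of genes between libraries. The 5 genes took 0.112%, 0.117% and 0.11% of all counts in the ESC libraries, 0.000692%, 0.00246% and 0.000523% in NPs and 0.148%, 0.126% and 0.155% in TET TKO ESCs. ESC replicates 1 and 2 were the closest libraries of a group (chi-square per degree of freedom 2.25, against 12.6 to 174 for the other 8 pairs) and still differed beyond sampling noise. That noise is counting error only, so the value cannot tell separate cultures from repeat libraries of the same culture. They were counted separately by their labels.

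The targeted genes were examined first, as a check of the knockout label. Tet1 measured 65.9, 60.8 and 68.5 RPKM in ESCs and 13.2, 16.1 and 11.3 RPKM in TET TKO ESCs. Tet2 measured 20.5, 20.3 and 16.1 RPKM in ESCs and 2.42, 2.7 and 2.32 RPKM in the knockout. Both RNAs were lower in every TET TKO library, by 4.84-fold and 7.69-fold (edgeR quasi-likelihood test, adjusted p = 8.67e-05 and 1.74e-05). Tet3 lay below 1 RPKM in all 6 libraries, at 0.746, 0.631 and 0.77 RPKM in ESCs and 0.561, 0.617 and 0.474 RPKM in the knockout, and was not tested there. Counts are summed over all exons of a gene, so reads from exons left in place cannot be told from reads of an intact transcript.

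The markers of the 2 wild-type cell types followed their labels. Summed over the 6 ESC markers Pou5f1, Nanog, Zfp42, Esrrb, Klf4 and Fgf4, the level was 1271.8 to 1304.2 RPKM in ESCs, 758.7 to 931.5 RPKM in TET TKO ESCs and 4.99 to 8.78 RPKM in NPs. Pou5f1 was the most abundant of them in every ESC library and Klf4 in every NP library. The NP markers Nes, Sox1 and Dcx were called higher in NPs than in ESCs, and Sox1 and Dcx passed the filter through NP libraries only. Nes measured 93.5, 58.2 and 71 RPKM in NP replicates 1, 2 and 3 and averaged 4.02 RPKM in ESCs and 11 RPKM in TET TKO ESCs. Sox1 measured 16.7, 8.98 and 9.9 RPKM in NPs and averaged 0.612 RPKM in ESCs, and Dcx 8.74, 4.69 and 9.59 RPKM and 0.00231 RPKM. Tubb3, a neuronal tubulin already at 67.3 to 69.2 RPKM in ESCs, was at 148.8, 56.8 and 106.8 RPKM in NPs and was not called. By marker levels, NP replicate 2 stood apart from the other NP libraries, with the lowest level of these 4 markers and the highest ESC marker sum (8.78 against 5.82 and 4.99 RPKM). It also had the highest fibroblast marker sum, 36.7 RPKM against 18.7 and 3.55 RPKM, over the 6 genes Col1a1, Col1a2, Col3a1, Thy1, Dcn and Lum. This sum was 5.56 to 6.78 RPKM in ESCs. Of the 4 tested, 1 was called higher in NPs, Col3a1, while Thy1 was 7.32-fold lower and not called. By chi-square per degree of freedom, NP replicate 1 was instead the library apart, at 57 and 61.3 from replicates 2 and 3, with 35.7 between these. The changes of the 5 genes in NPs are therefore also given without replicate 2 and without replicate 1. TET TKO replicate 3 differed more from replicates 1 and 2 of its group (chi-square per degree of freedom 144 and 174) than these from each other (96.9), and the changes in the knockout are likewise given without it. Primitive endoderm markers were present in all 3 NP libraries: the 6 genes Gata4, Gata6, Sox7, Sox17, Dab2 and Pdgfra summed to 12.5, 17 and 14.4 RPKM, against 2.15 to 3.52 RPKM in ESCs, with Gata6 the most abundant in replicates 1 and 2 and Sox17 in replicate 3. Of the 5 tested, Gata6 (11.8-fold) and Sox17 (32-fold) were called higher, and 4 had passed the filter through NP libraries only. The part of cells with such endoderm or fibroblast markers in the levels of the 5 genes was not tested.

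The 5 genes lie at 4 places in the genome (GRCm38). Dppa4 (ENSMUSG00000058550, chr16:48283735-48294292) and Dppa2 (ENSMUSG00000072419, chr16:48310477-48319723) are neighbours on the plus strand of chromosome 16, 16.2 kb apart, with 7 exon blocks each. Dppa3 (ENSMUSG00000046323, chr6:122626410-122630272, plus strand) has 5 exon blocks and 892 exonic bases. Dppa5a (ENSMUSG00000060461, chr9:78367052-78368177, minus strand) is the shortest, with 3 exon blocks and 619 exonic bases. Utf1 (ENSMUSG00000047751, chr7:139943789-139945112, plus strand) has 2 exon blocks and 1227 exonic bases. No other annotated gene shared exon bases with a member gene on either strand. Shared sequence is a limit for 2 of them. Reads were counted only where they aligned to a single place, so reads common to Dppa5a and its close copies Dppa5b and Dppa5c, 120.9 and 94.5 kb away, or to Dppa3 and its processed copy Dppa3-ps on chromosome X, are missing from these values or could be split between copies. Dppa5b and Dppa5c had 0 counts in every ESC and NP library and at most 2 counts in a TET TKO library. Dppa3-ps had 0, 1 and 0 counts in ESCs, 0 in each NP library and 35, 29 and 65 counts in TET TKO ESCs, where Dppa3 itself had 4071, 4960 and 9967 counts. The copy reached 1 RPKM in knockout libraries only and had 1 count in all ESC libraries together, so no fold change is given for it. The remaining gene of the name, Dppa1, had 1, 1 and 2 counts in ESCs, 0 in NPs and 10, 15 and 58 in the deeper TET TKO libraries. Its mean levels were 0.0368, 0 and 0.214 RPKM.

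RefSeq's promoter table (GRCm38.p6), which spans 250 bases before to 50 after a start site, matched 1 of the 5 genes, Utf1, shown here because methylation of CpGs is the substrate of the missing TET enzymes. The sequence is chr7:139943606-139943905 on the plus strand, with every CpG in capitals:
Utf1: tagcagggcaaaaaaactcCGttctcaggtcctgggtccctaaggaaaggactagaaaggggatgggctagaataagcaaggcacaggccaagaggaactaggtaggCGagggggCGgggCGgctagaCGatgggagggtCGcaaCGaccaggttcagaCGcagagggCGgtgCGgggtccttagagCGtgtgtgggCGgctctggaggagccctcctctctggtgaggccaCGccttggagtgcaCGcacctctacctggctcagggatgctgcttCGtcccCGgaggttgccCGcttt
It holds 17 CpGs, and 68.6% of the 32851 promoters in the table hold fewer, with a median of 7. Its GC share was 62% against a median of 52.7%, and its ratio of observed to expected CpGs was 0.615 against a median of 0.384. Neither the octamer ATGCAAAT, bound by OCT4, nor CNTTGT, a core of SOX sites, was found on either strand in this window, and 1.74% and 41.2% of all promoters hold a match to them. Variant sites and sites outside this window were not searched. Methylation of this promoter was not analysed here.

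In wild-type ESCs the mean levels of the 5 genes spanned more than 2 orders of magnitude. Dppa5a was among the most abundant RNAs of the cell, at 927.6, 977.5 and 963.6 RPKM (956.3 ± 25.7, SD, n = 3), rank 11 of 34884 genes with any count. Utf1 followed with 254.2, 279.6 and 265.1 RPKM (266.3 ± 12.7), rank 63. Dppa2 measured 59.1, 63.5 and 40.4 RPKM (54.4 ± 12.3) and its partner Dppa4 47.6, 51.4 and 42.5 RPKM (47.2 ± 4.5). The ranges of these partners over the 3 libraries overlapped, whereas those of the other neighbours in the order did not. Dppa3 was the lowest, at 6.32, 5.44 and 12.9 RPKM (8.24 ± 4.1), with replicate 3 the highest library. In NPs all 5 were low. Dppa5a measured 5.08, 17.2 and 2.58 RPKM and Utf1 2.07, 5.73 and 1.2 RPKM. Dppa4 was at 0.214, 1.29 and 0.647 RPKM, Dppa2 at 0.217, 1.18 and 0.266 RPKM and Dppa3 at 0.263, 0.507 and 0.242 RPKM. Each was highest in NP replicate 2, and the ranges of all neighbours in the order overlapped, although Dppa5a lay above Utf1 and Utf1 above Dppa4 within every NP library. The 5 genes had 21 (Dppa3) to 363 (Dppa5a) counts over the 3 NP libraries together.

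**Figure D1:**
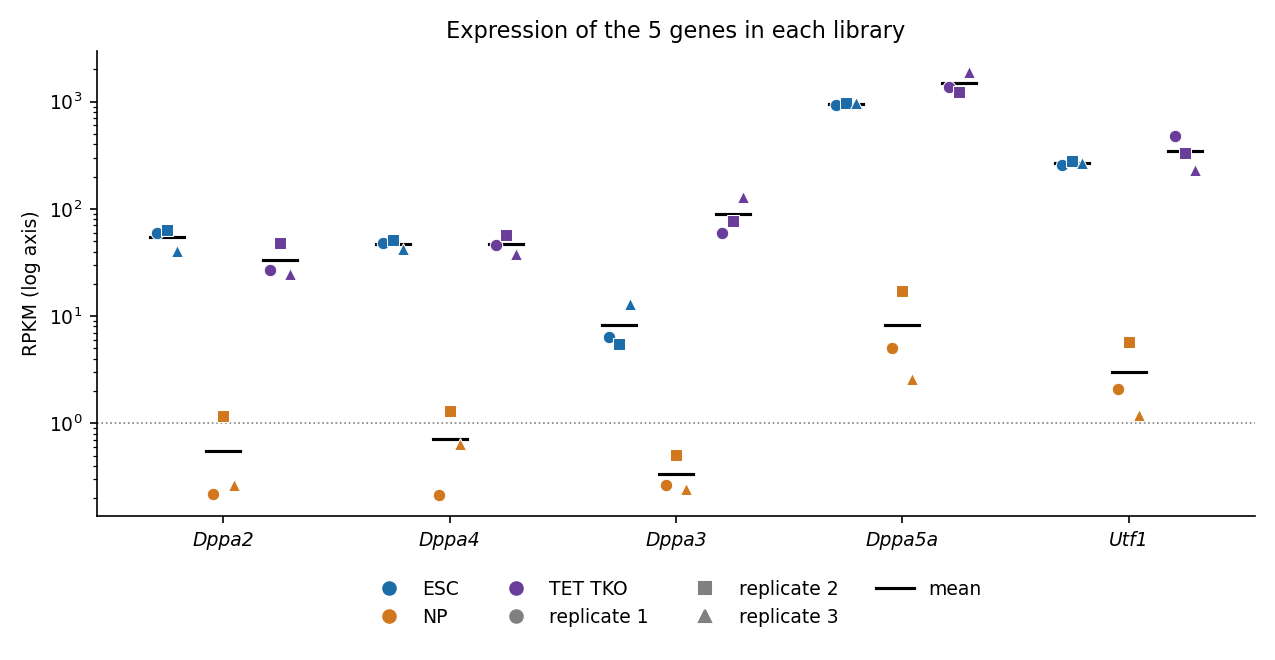
RPKM (log axis) of Dppa2, Dppa4, Dppa3, Dppa5a and Utf1 in each of 9 libraries, by group; symbols mark the replicate, black bars the mean of 3 libraries and the dotted line 1 RPKM. All 5 genes are low in NPs, with replicate 2 the highest NP library for each, and Dppa3 is the gene whose TET TKO libraries (59.2 to 129.5 RPKM) lie farthest above the ESC libraries (5.44 to 12.9 RPKM).

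In TET TKO ESCs the order of the levels was another one. Dppa5a stayed highest, at 1383.1, 1243.6 and 1896.4 RPKM (1507.7 ± 343.8, rank 10), and Utf1 second, at 475.3, 331.7 and 230 RPKM (345.7 ± 123.2, rank 50). Dppa3 came next, at 59.2, 77.9 and 129.5 RPKM (88.9 ± 36.5), at rank 556 where it held rank 5928 in wild-type ESCs. Dppa4 measured 45.9, 56.7 and 37.6 RPKM (46.7 ± 9.6) and Dppa2 26.8, 47.6 and 24.8 RPKM (33 ± 12.6). The ranges of Dppa4 and Dppa2 again overlapped, and those of the other neighbours did not. Within each library Dppa2 lay below Dppa4, with ratios of 0.584, 0.839 and 0.659, against 1.24, 1.23 and 0.951 in ESCs.

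Differentiation into NPs was accompanied by a loss of nearly all RNA of the 5 genes. Against ESCs, Dppa5a was 115.4-fold lower (log2 fold change −6.85, SE 0.61), Dppa2 96-fold (−6.58, SE 0.52), Utf1 88.6-fold (−6.47, SE 0.49) and Dppa4 64.7-fold (−6.01, SE 0.44). Dppa3, the gene with the lowest ESC level, was 23.9-fold lower (−4.58, SE 0.5). A gene was called when its fold change was at least 3 and its p, adjusted by Benjamini-Hochberg over all genes tested, was below 0.001 in edgeR's quasi-likelihood test. Genes with at least 1 RPKM in at least 1 library of the groups compared were tested. A gene that passes through ESC libraries only can hardly be called higher. All 5 passed, Dppa3 in that way, and all 5 were called lower, with adjusted p from 9.54e-06 (Dppa4) to 7.66e-05 (Dppa3). For comparison, 1517 of 15197 genes tested (9.98%) were called lower and 1891 (12.4%) higher. By size of the fall, Dppa5a ranked 174, Dppa2 210, Utf1 220, Dppa4 296 and Dppa3 649 of 15197. Fewer cells that express these genes and less RNA per cell cannot be told apart in such bulk libraries. Without NP replicate 2 the log2 fold changes were −7.97 for Dppa5a, −7.79 for Dppa2, −7.36 for Utf1, −6.74 for Dppa4 and −5.00 for Dppa3, and all 5 were called lower. Dppa2 and Dppa4, like Dppa3, then passed the filter through ESC libraries only. Without NP replicate 1 the log2 fold changes ran from −6.58 (Dppa5a) to −4.43 (Dppa3), and all 5 were called lower.

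**Figure D2:**
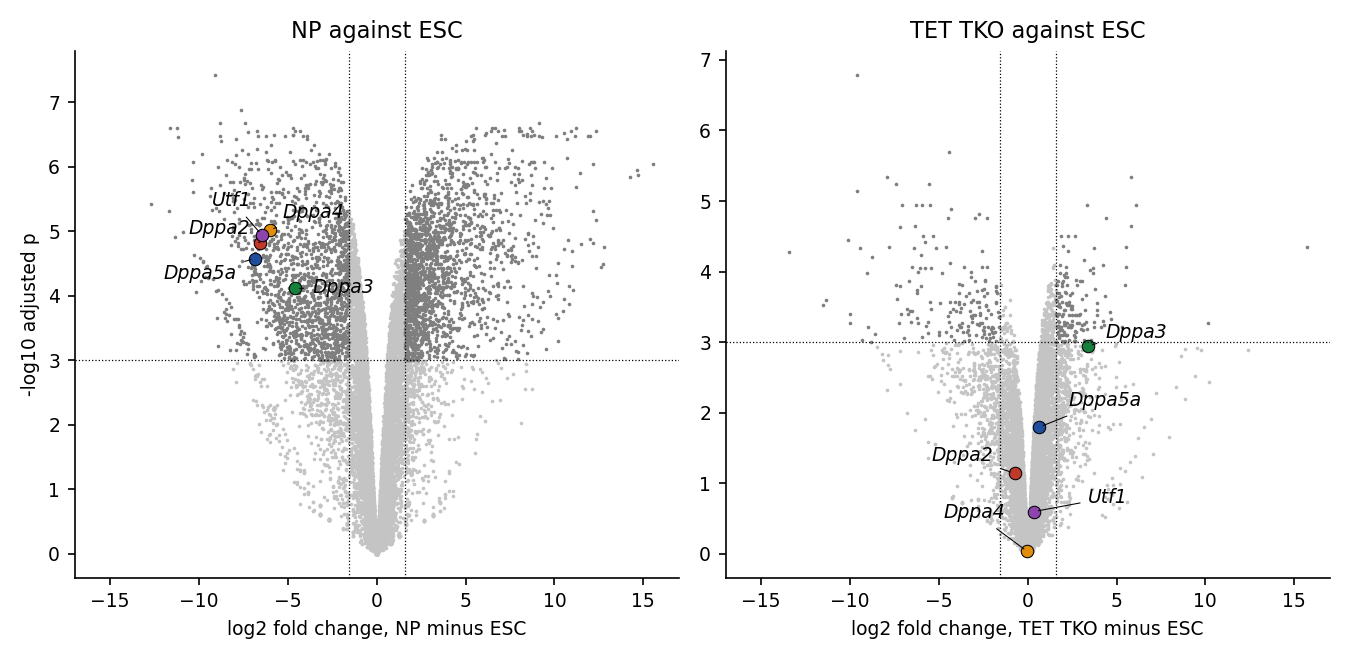
Log2 fold change against ESCs (x axis) and −log10 of the adjusted p (y axis) for all genes tested in NPs (left, 15197 genes) and in TET TKO ESCs (right, 13939 genes); dark grey genes were called, dotted lines mark a fold change of 3 and an adjusted p of 0.001, and coloured points are the 5 genes. All 5 lie among the called genes on the left; on the right Dppa3 lies at 3.41, just under the line for p, and the other 4 between −0.73 and 0.65.

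In the knockout the 5 genes did not move as a group, and the largest difference was that of Dppa3. Its level was 10.7-fold higher than in ESCs (log2 fold change 3.41, SE 0.42), with every TET TKO library above every ESC library, and it ranked 105 of 13939 genes by size of the rise. Its adjusted p of 0.00113 lay just above 0.001, so it was not called by the rule used. Dppa5a measured 1.57-fold higher (0.65, SE 0.16, adjusted p = 0.016), and its groups did not overlap either. Over the settings tried its log2 fold change ran from 0.45 to 0.77 and its adjusted p from 0.000971 to 0.292, the highest with all 3 groups in the fit. The groups overlapped for Utf1 (0.37, SE 0.23, adjusted p = 0.251), for Dppa2 (−0.73, SE 0.27, adjusted p = 0.0724) and for Dppa4 (−0.02, SE 0.16, adjusted p = 0.922). Separation of 3 from 3 libraries is a weak mark. It also held for Dnmt1 (−0.14, edgeR adjusted p = 0.231), and its share over all genes tested is not given here. Dppa2 was lowest in replicate 3 of both groups, and TET TKO replicate 2 fell within the range of the ESC libraries. TET TKO replicate 3, which stood apart, had the highest Dppa3 and Dppa5a and the lowest Dppa2, Dppa4 and Utf1 of its group. Without it the log2 fold changes were 3.04 for Dppa3, 0.45 for Dppa5a, 0.59 for Utf1, 0.11 for Dppa4 and −0.56 for Dppa2. Across all settings, Utf1 ran from 0.07, without TET TKO replicate 1, to 0.59. Dppa2 ran from −1.08, without TET TKO replicate 2, to −0.56, with adjusted p over the edgeR and DESeq2 settings from 0.00501 to 0.204. TET TKO replicate 3 also had the highest sum of trophoblast markers (101.7 RPKM against 63.9 and 63.9 RPKM). That rank rested on Tfap2c, at 79.1 RPKM against 51.8 and 40.5 RPKM, which is also on the list of primordial germ cell genes. The sum of the 8 formative genes was lowest there (74.2 RPKM against 161 and 203.4 RPKM). The part of these markers in the changes of the 5 genes was not tested.

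By the rule, edgeR called 0 of the 5 genes in TET TKO ESCs, where 169 of 13939 genes tested (1.21%) were called lower and 153 (1.1%) higher. At an unadjusted p under 0.05, 2 of the 5 were higher (Dppa3 and Dppa5a) and 1 was lower (Dppa2), where 29.7% of all genes tested were higher and 16.8% lower. At an edgeR adjusted p under 0.05 with no limit on the fold, 2 of the 5 were higher and 0 lower, beside 22.8% and 12.7% of all genes. In DESeq2 Dppa2 too lay under 0.05 (log2 fold change −0.84, adjusted p = 0.0106). DESeq2 called 1 of the 5, Dppa3, beside 2.9% of genes higher and 3.63% lower. For Dppa3 its log2 fold change was 3.31 with an adjusted p of 2.13e-17, and over all settings tried the adjusted p of this gene ran from 2.13e-17 to 0.00754 and its log2 fold change from 3.04 to 3.89. That of Dppa4 changed sign, between −0.19 and 0.11. Scaling moved this comparison as a whole: the median log2 fold change of all genes tested was 0.12 with TMM, and it was lower by 0.16 with library totals alone and by 0.11 with DESeq2's scaling. Of the genes called, 65.9% were lower with library totals alone and 52.5% with TMM. With the TET TKO counts thinned at random to the median total of the ESC libraries, 294 genes and 0 of the 5 were called, and the log2 fold changes were 3.35 for Dppa3, 0.57 for Dppa5a, 0.31 for Utf1, −0.13 for Dppa4 and −0.83 for Dppa2. Relative to the median of all genes with TMM, Dppa3 stood at 3.29, Dppa5a at 0.52, Utf1 at 0.24, Dppa4 at −0.15 and Dppa2 at −0.85. The number of genes called, 322, changed with the number and choice of libraries: it was 50, 59 and 74 without ESC replicate 1, 2 or 3, 126 and 190 without TET TKO replicate 1 or 2, and 329 without TET TKO replicate 3. Of those calls 72%, 69.5% and 67.6% were in the lower direction without ESC replicate 1, 2 or 3.

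The surroundings of the 5 genes were then compared with the genes themselves. Around Dppa3 on chromosome 6 lie Gdf3, a TGF-beta ligand of pluripotent cells, 16.3 kb away, Apobec1, a cytidine deaminase, 24 kb away, and Nanog, the pluripotency factor, 77.2 kb away on the other side. In NPs these 3 were called lower, at −7.58, −3.18 and −8.25 on the log2 scale (edgeR, adjusted p = 5.53e-07, 8.08e-06 and 1.72e-06). Of the other 3 neighbours Mfap5 was called lower (−4.35), while Gm10224, 68.1 kb away, and Slc2a3 were not (−1.20 and −1.69). In TET TKO ESCs, where Dppa3 stood at 3.41, the log2 fold changes of Gdf3, Apobec1 and Nanog were −0.04, 0.05 and −0.23 (adjusted p = 0.84, 0.853 and 0.579). Those of Mfap5, Gm10224 and Slc2a3 were −0.97, −1.74 and −0.07, and none of the 6 was called. Whether the change of Dppa3 differs from that of its neighbours was not tested.

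Dppa2 and Dppa4 are each other's nearest expressed neighbour. The next gene, Morc1, which encodes a germ cell ATPase that acts in transposon silencing, lies 111.5 kb beyond Dppa2 and measured 64.9 RPKM in ESCs, 0.235 RPKM in NPs (−8.07, edgeR adjusted p = 1.73e-06) and 52.2 RPKM in TET TKO ESCs (−0.32, adjusted p = 0.0953). Farther tested genes were not called in NPs: Nectin3, which encodes a cell adhesion protein (0.99), Dzip3 (0.58), Cip2a (−1.25) and Gm4737 (−0.37). In the same order they lie 1812, 604.5, 674.5 and 2155.4 kb from Dppa2. Dppa5a lies 7.93 kb from Ooep, a gene of the maternal KH domain family, and 27.6 kb from Ddx43, which encodes an RNA helicase. Both were called lower in NPs (−7.97 and −5.28), with log2 fold changes of −0.62 and −0.14 in TET TKO ESCs. Of its other neighbours Gsta4 was called lower in NPs (−2.11), and Cgas, C920006O11Rik and Rn7sk were not (−1.67, −0.16 and 0.96). Utf1 lies 2.25 kb from Kndc1, called lower in NPs (−3.96), and its other tested neighbours in NPs, Nkx6-2, Inpp5a and Adam8, had log2 fold changes of 0.88, 0.05 and −0.18. Over all genes tested in NPs, 9.98% were called lower and 12.4% higher. Among the 24 neighbours of the 5 genes, 21 were tested in NPs, of which 9 were called lower and 0 higher, with a median log2 fold change of −1.67. Of those 9, 7 had passed the filter through ESC libraries only (Morc1, Gdf3, Apobec1, Mfap5, Ooep, Ddx43 and Kndc1), so the direction of these calls follows in part from the filter. Among the same neighbours in the knockout all 24 were tested, 1 was called lower, Gm4737, and 0 higher, with a median of −0.17, and Gm4737 too had passed through ESC libraries only. Over all genes tested in the knockout, 1.21% were called lower and 1.1% higher.

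**Figure D3:**
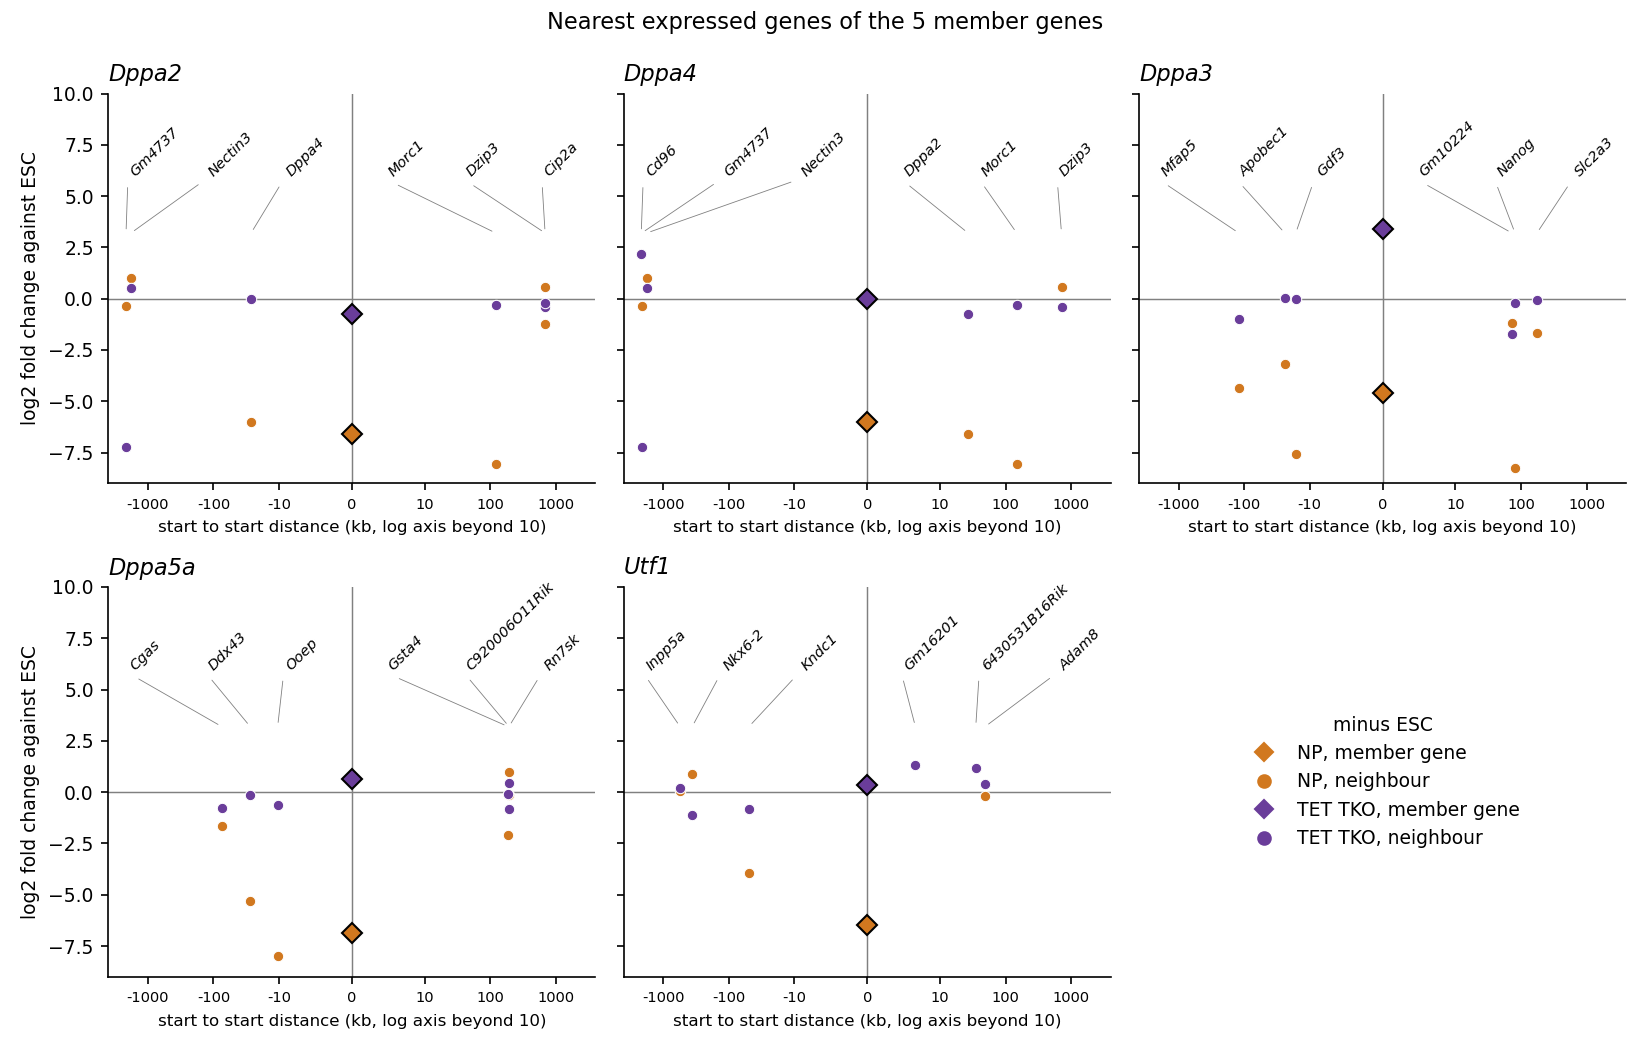
Log2 fold change against ESCs of each member gene (diamonds) and of its 3 nearest expressed genes on either side (circles), by distance between gene starts in kb (positive downstream; linear within 10 kb, log axis beyond), in NPs (orange) and TET TKO ESCs (purple). Neighbours without an orange circle were not tested in NPs; Gdf3, Apobec1 and Nanog lie near 0 in TET TKO ESCs (−0.04, 0.05 and −0.23) where Dppa3 is at 3.41.

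Transcripts first known, like these genes, for their restriction to ES cells gave a reference for the loss in NPs. All 8 of the ES cell-associated transcripts Nanog, Fbxo15, Eras, Dnmt3l, Gdf3, Sox15, L1td1 and Khdc3 were called lower in NPs (median log2 fold change −7.71, against 0.04 over all 15197 genes tested), from −5.21 for Sox15 to −8.92 for Dnmt3l. Likewise all 18 pluripotency regulators were called lower (median −6.98), beside 9.98% of all genes tested. Of these lists, 3 of the 8 and 6 of the 18 passed the filter through ESC libraries only. Pou5f1, which encodes OCT4, went from 393.1 to 1.09 RPKM and Tcl1, an AKT coactivator, had the largest fall at −11.26. In TET TKO ESCs edgeR called 0 of the 8 ES cell-associated transcripts (4 at an unadjusted p under 0.05, 2 in each direction; DESeq2 called 1 lower), with a median of −0.10. Of the 18 regulators 1 was called lower there, Zfp42, a zinc-finger gene that marks naive pluripotency and is also known as Rex1, which went from 304.3 to 50.6 RPKM (−2.60, edgeR adjusted p = 8.59e-05). At an unadjusted p under 0.05, 9 of the 18 were lower and 0 higher, DESeq2 called 2 lower, and 2 were called lower without TET TKO replicate 3. Tbx3, a T-box factor of naive cells, went from 57.3 to 7.07 RPKM (−3.02, edgeR adjusted p = 0.00291). The median over the list was −0.45.

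**Figure D4:**
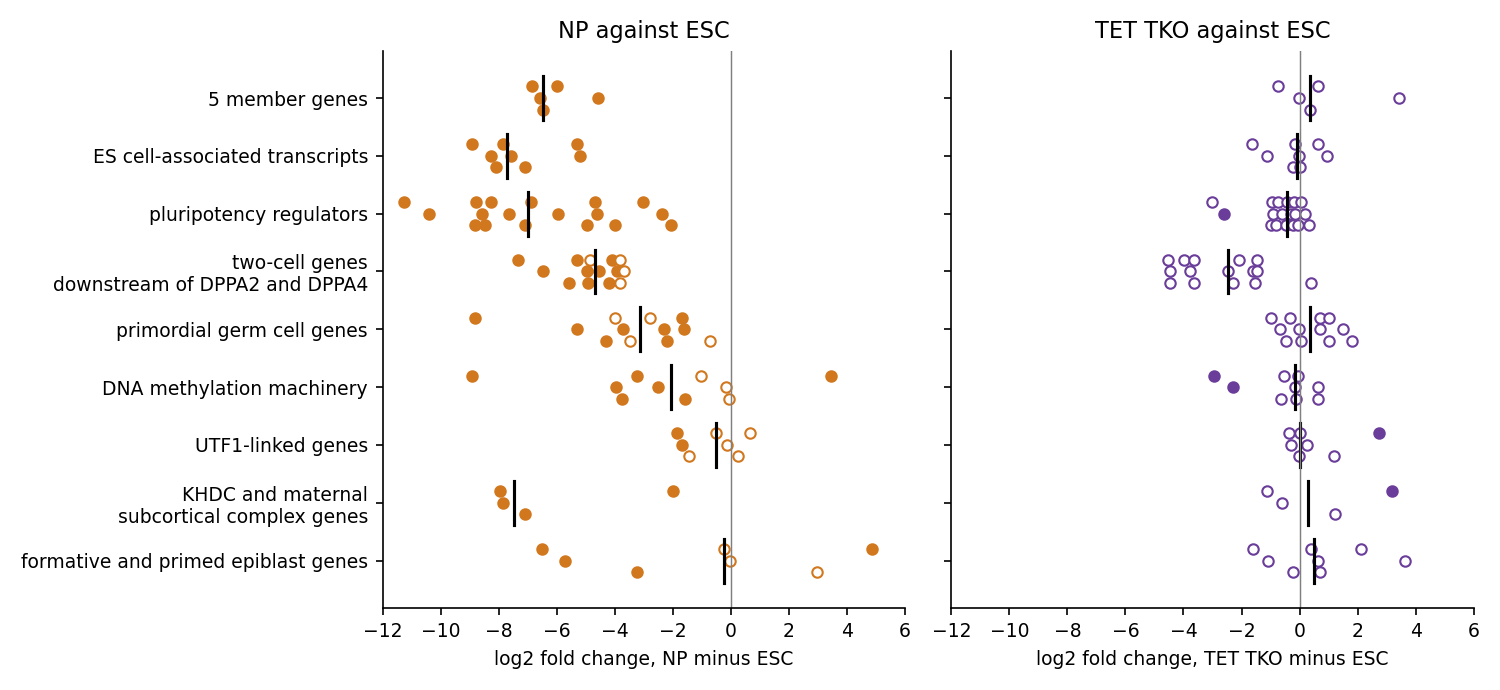
Log2 fold change against ESCs for the 5 member genes and the tested genes of 8 lists, in NPs (left) and TET TKO ESCs (right); filled circles were called, open circles were not, and black bars are the median. The member genes lie between −6.85 and −4.58 in NPs. EdgeR called 0 of the 15 tested 2-cell genes in TET TKO ESCs, where DESeq2 called 10 lower.

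Genes of the 2-cell embryo that act downstream of DPPA2 and DPPA4 form the list closest to the function of that pair. In ESCs the 18 genes summed to 100.6, 96.1 and 32.4 RPKM, with Zscan4d the most abundant in replicates 1 and 2 and Zscan4a in replicate 3. The sum in TET TKO ESCs was 10.8, 17.8 and 4.23 RPKM. Zscan4d, Zscan4a and Zscan4c, members of a telomere-linked zinc-finger family, averaged 16.7, 15.6 and 7.8 RPKM in ESCs and 1.25, 0.719 and 0.502 RPKM in TET TKO ESCs, where their log2 fold changes were −3.76, −4.45 and −3.97 (edgeR adjusted p = 0.0105, 0.00165 and 0.00424). Of 15 tested genes of the list edgeR called 0, while 13 were lower at an unadjusted p under 0.05 and DESeq2 called 10 lower. Because 8 of the 15 had passed the filter through ESC libraries only, these counts follow in part from the filter. With no filter, all 18 genes were tested and edgeR called 9 lower and 0 higher, beside 689 lower and 574 higher of all 33796 genes. With filterByExpr, another filter on low counts, 17 were tested and 0 called. Within the ESC group the list was lowest in replicate 3, the library in which Dppa2 was lowest and Dppa3 highest, and within the TET TKO group it was again lowest in the library with the lowest Dppa2 and the highest Dppa3. In NPs it was highest in replicate 2, where Dppa2 and Dppa3 were both highest. No relation was tested over these few libraries. In NPs the sum was 0.594, 5.31 and 1.75 RPKM. There 13 of the 14 tested genes had passed the filter through ESC libraries only and could hardly be called anything but lower, so their calls are not counted here. These genes belong to families of near-identical copies, so counts of single genes are uncertain.

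**Figure D5:**
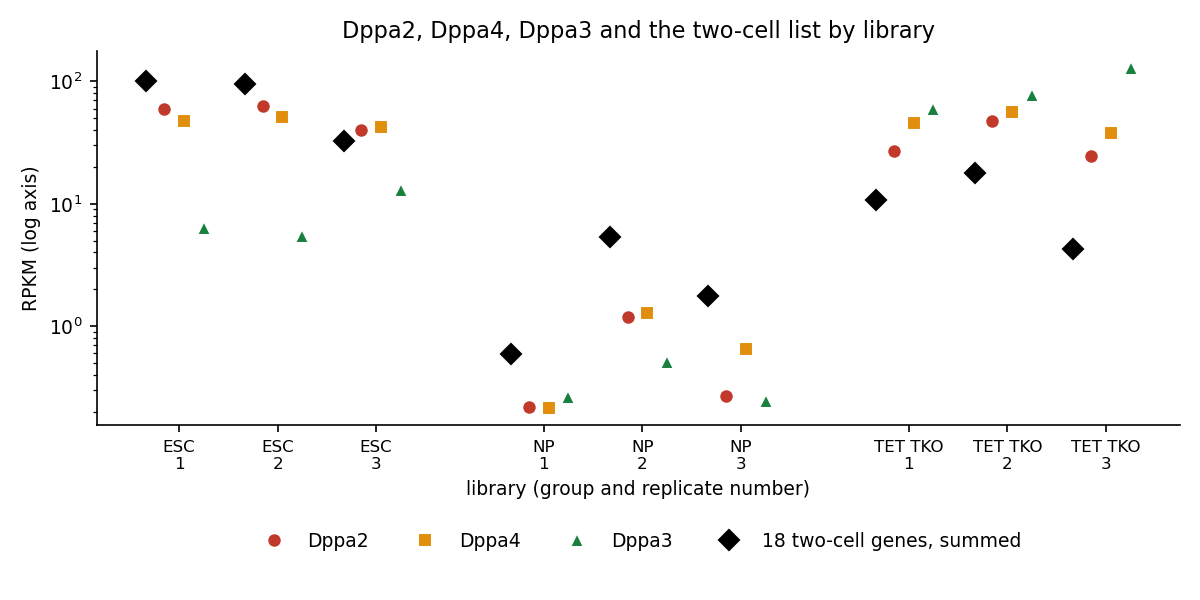
RPKM (log axis) of Dppa2, Dppa4, Dppa3 and the sum of the 18 2-cell genes in each library. The sum is 32.4 to 100.6 RPKM in ESCs and 4.23 to 17.8 RPKM in TET TKO ESCs. In the same order Dppa2 is at 40.4 to 63.5 and 24.8 to 47.6 RPKM, and Dppa4 at 42.5 to 51.4 and 37.6 to 56.7 RPKM.

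For Dppa3, the relevant groups are the DNA methylation machinery and the germ cell genes. UHRF1 RNA measured 112.3 RPKM in ESCs and 100.8 RPKM in TET TKO ESCs (−0.17, edgeR adjusted p = 0.331), and that of DNMT1 76.1 and 69.5 RPKM (−0.14, adjusted p = 0.231). Of 9 tested genes of the machinery list 2 were called lower in the knockout, the targeted Tet1 and Tet2, and 0 higher. In NPs, where Dppa3 was lost, 6 of 10 were called lower and Tet3 higher (0.715 to 7.82 RPKM). Of all genes tested in NPs, 9.98% were called lower and 12.4% higher. The largest fall on the machinery list was that of Dnmt3l, the cofactor of the de novo methyltransferases (−8.92). Dnmt3l had passed the filter through ESC libraries only and Tet3 through NP libraries only. Uhrf1 was 2.04-fold lower in NPs (−1.03, edgeR adjusted p = 5.92e-05), below the fold limit. Of 12 primordial germ cell genes, 8 were called lower in NPs, beside 9.98% of all genes tested. The median of the 12 was −3.14, with the largest fall for Prdm14 (−8.81). Prdm14 and 1 other of the 12 had passed the filter through ESC libraries only. The number called was 4 without ESC replicate 3, 5 without NP replicate 3 and 10 without NP replicate 2. Of these 12 genes edgeR called 0 in TET TKO ESCs (6 were higher and 2 lower at an unadjusted p under 0.05, and DESeq2 called 1 higher; median 0.37). The most abundant, Ifitm3, encoding a membrane protein of early germ cells, was 2.03-fold higher (1.02, adjusted p = 0.000955), below the fold limit.

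For Dppa5a, the list held its KH domain relatives and the maternal subcortical complex, a protein assembly of the oocyte. Of its 8 genes, Khdc1a, Khdc1b, Nlrp5 and Padi6 were below 1 RPKM in every library and were not tested. Khdc3, Ooep, Nlrp4f and Tle6 averaged 19.9, 51.2, 2.79 and 3.11 RPKM in ESCs and 0.0816, 0.199, 0.0184 and 0.775 RPKM in NPs. All 4 passed the filter there through ESC libraries only, so their calls in that direction follow in part from the filter. Nlrp4f was called higher in TET TKO ESCs, from 2.79 to 25.1 RPKM (3.17, edgeR adjusted p = 6.86e-05), and the others were not called (Tle6 1.21, Ooep −0.62 and Khdc3 −1.13).

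For Utf1, the list joined Polycomb genes, whose products UTF1 counteracts on chromatin, the decapping factor gene Dcp1a, Myc and the cell cycle inhibitor locus Cdkn2a. In NPs 2 of 7 were called lower, Eed (−1.87) and Jarid2 (−1.70), beside 9.98% of all genes tested. The median of the 7 was −0.50. In TET TKO ESCs 1 was called, Cdkn2a, which went from 4.17, 3.79 and 2.74 RPKM in ESCs to 33.6, 20 and 17.6 RPKM (2.73, edgeR adjusted p = 0.00072). The call was lost with library totals alone, with all 3 groups in the fit and without each library other than TET TKO replicate 3. Suz12, a core subunit of the Polycomb complex, was 2.29-fold higher (1.20, adjusted p = 0.000988), below the fold limit, and the median of the list was 0.01.

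The formative and primed epiblast genes, which rise when naive ESCs move on, were included to place the knockout line. Fgf5 measured 0.152 RPKM in ESCs, 1.86 RPKM in TET TKO ESCs (3.62, edgeR adjusted p = 0.00243) and 1.19 RPKM in NPs, and Pou3f1 1.41, 6.22 and 1.2 RPKM. Otx2 and Nodal lay lower in the knockout (−1.62 and −1.09, adjusted p = 0.0335 and 0.00814), and Dnmt3b, Sox3, Zic2 and Lef1 were at 0.64, 0.38, −0.22 and 0.70. Fgf5 and Lef1 had passed the filter of that comparison through the knockout libraries only, so the direction of their tests follows in part from the filter. EdgeR called 0 of the 8 in TET TKO ESCs (2 in each direction at an unadjusted p under 0.05; DESeq2 called 2 higher and 1 lower). Trophoblast markers were also followed there, with Tfap2c also on the list of primordial germ cell genes. The 6 genes Cdx2, Elf5, Hand1, Ascl2, Tfap2c and Plac1 summed to 22.4 to 29 RPKM in ESCs and 63.9 to 101.7 RPKM in TET TKO ESCs, mostly from Tfap2c (20.2 and 57.1 RPKM). Of the 4 tested, edgeR called 1 higher, Hand1 (0.504 to 9.89 RPKM), a call lost without each library other than TET TKO replicate 3, and DESeq2 called 2 higher. Plac1 went from 0.194 to 2.7 RPKM (3.80, edgeR adjusted p = 0.00285) with no overlap between the groups. Hand1 and Plac1 passed the filter through the knockout libraries only. The defining markers Cdx2 (0.163 and 0.298 RPKM) and Elf5 (0.0153 and 0.0979 RPKM, with no overlap) stayed below 1 RPKM and were not tested. The part of such cells in the levels of the 5 genes was not tested.

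Over the 9 libraries, the genes whose log2 CPM (counts scaled to library size, prior count 2) ran most like each member were named from 15504 genes with at least 1 RPKM in a library. The value is Pearson's r, which here mostly reflects the 3 groups. Dppa2 was followed by Mlana, Slc30a2, Zfp984, Zfp600 and Ass1 (r 0.996 to 0.998), and Dppa4 by Zfp982, Pced1b, Morc3, Nop14 and Ddx10 (0.996 to 0.998). Dppa3 had Cenpu, Tle6, Taf5l, Capn11 and Suz12 (0.990 to 0.995). Dppa5a had Inpp5d, Pla2g10, Epp13, Gm18558 and Tdgf1 (0.996 to 0.997), and Utf1 had Tdgf1, Dnaja3, Gm14058, Dnmt3l and Def6 (0.995 to 0.998). Tdgf1, which encodes a NODAL coreceptor, was the gene named for both of the most abundant members.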

How the data were processed

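The counts per gene deposited by the authors were used for 9 RNA-Seq libraries, 3 per cell type, out of 24 samples in the series, and no reads were aligned here. According to the submitters' processing notes and the headers of the count tables, reads were trimmed with Trimmomatic 0.38, aligned with STAR 2.6.1b to GRCm38 and counted over exons with featureCounts 1.6.2 and Ensembl 89, without regard to strand and without counting reads that align to several places. The study's library kit was stranded, so any antisense reads over the exons are included in these counts. ESC libraries were shared by both comparisons, so the values of NPs and TET TKO ESCs are given side by side and were not correlated.

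Counts were analysed in edgeR 4.0.16 (R 4.3.3) with TMM scaling and quasi-likelihood tests, after keeping genes with at least 1 RPKM in at least 1 library of the groups compared. A gene was called when its fold change reached 3 and its Benjamini-Hochberg adjusted p lay under 0.001, limits taken from the study. DESeq2 1.42.0 was the alternative. Tables and figures were made with Python 3.11.15, numpy 2.4.6, pandas 2.3.3 and matplotlib 3.10.9. The 5 genes and the lists were chosen with earlier results of these data known. Genes were named from the following: the 5, other genes with a Dppa name, Tet1 to Tet3, in each list the 3 with the highest ESC mean and the called genes with the largest rise or fall, any gene of a list of up to 8, the 5 genes most alike to each member and the 3 nearest expressed genes on each side. Uhrf1 and Dnmt1 are named beyond this rule for their known link to DPPA3, and Tbx3 for its value.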

Additional observations from a re-analysis of the deposited data

How the results depend on the processing

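All 5 genes were called lower in NPs under every setting. Leaving out 1 library at a time gave 2464 to 3413 called genes in NPs, against 3408; no filter gave 5281, an adjusted p under 0.05 with no fold limit 9734. In TET TKO ESCs leaving out 1 library gave 50 to 329 called genes against 322; DESeq2 gave 910, no filter 1263, a fold change of 2 485 and an adjusted p under 0.05 4953.

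Of the 5 genes edgeR called 0 in TET TKO ESCs, and 0 with each library left out. The number was 1 (Dppa3) with DESeq2, with no filter, with filterByExpr and with all 3 groups in the fit, and 2 at an adjusted p under 0.05. Dppa4 stood at −0.18 without TET TKO replicate 2 and changed sign, to 0.03 without ESC replicate 2 and 0.11 without TET TKO replicate 3. TPM gave levels 3.3 to 3.92 times the RPKM, with the order of the genes unchanged.

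No label says that replicate numbers pair across groups. Correlations of deviations for same-number libraries were −0.055, 0.009 and −0.123 in NPs, and −0.08, 0.306 and 0.214 in TET TKO ESCs, where those for different numbers ran from −0.393 to 0.19; whether numbers mark a pair there cannot be told from 3 libraries. With the replicate number as a block, 3415 genes were called in NPs and 674 in TET TKO ESCs, with 1 of the 5 genes, Dppa3 (3.45), among the latter. The block called 10 of the 15 tested 2-cell genes lower in TET TKO ESCs, where edgeR without it called 0. Of the 674 genes called with the block, 49.3% were lower. Because 8 of the 15 had passed the filter through ESC libraries only, the count of 10 follows in part from the filter.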
